A study of Homo sapiens with 12 samples.

Results

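The genes of caveolae, the caveolins CAV1 and CAV2, the cavins CAVIN1, CAVIN2 and CAVIN3, and EHD2, were described across 4 treatment groups of HepG2, an established human line from a hepatoma. These 6 genes were taken by symbol out of 28256 gene symbols in the deposited table, with the transcript of highest total for each. All cells were wild type by their label and spent 24 h in medium with charcoal-stripped serum, then 24 h with DMSO (0.1%, the vehicle), dexamethasone (Dex, 50 nM), KLA (labelled 100 ng/µl) or both agents (DexKLA), with 3 libraries per group. Dex is a synthetic glucocorticoid. The labels do not spell out KLA, and its dose unit was taken as labelled. They give a DMSO percentage for the vehicle alone and do not say whether replicates were separate cultures, so each p-value reflects the scatter among the deposited libraries and no more, and that scatter may be technical.

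Caveolae are small flask-shaped pits of the plasma membrane, rich in cholesterol and abundant in endothelium, fat and muscle. Caveolins insert into the inner face of the membrane, cavins form a coat over them, and EHD2, an ATPase, sits at the neck and holds the pit at the surface. CAVIN1 (formerly PTRF) is the coat subunit that caveolae require, CAVIN2 (formerly SDPR, for serum deprivation response) and CAVIN3 join it, and CAV3 and CAVIN4 are the forms of muscle. HepG2 is commonly described as a line with little caveolin-1.

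In these libraries CAVIN1 and CAVIN2 were well counted, while both caveolins were near 0. CAVIN2 was higher in all 6 libraries with Dex than in all 6 without, as were 0.6% of the 13166 tested genes; 3 of the 6 Dex libraries belong to the contrast on which it was noticed. CAVIN1 stayed between 52.2 and 62.5 CPM (the usual depth-scaled count, here scaled by TMM, edgeR's correction for library composition) in every library. The genes were selected on measured values: they were proposed with earlier results of these data in view, in which CAVIN2 stood out in DexKLA versus KLA. Every other comparison of CAVIN2 except Dex versus DMSO reuses libraries of that contrast, so CAVIN2 is described there and no test of it is read. The SEs and intervals given for it there do not allow for that choice. Dex versus DMSO shares no library with it.

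Total counts over genes ran from 3317739 to 20933501 per library. Every KLA library was deeper than every DMSO library. KLA replicate 3 and DexKLA replicate 3 stood apart from the other replicates of their groups (chi-square per degree of freedom 23.3 and 24.1, against 5.98 between the other KLA libraries, and 19.3 and 10.6, against 3.13 between the other DexKLA libraries). The hepatocyte markers (12 of 12 tested) summed to 100000 to 117000 CPM in the DMSO libraries and 138000 to 144000 in Dex. In KLA they summed to 130000 to 137000 CPM and in DexKLA to 123000 to 165000. ALB, at 57000 CPM or more, and AFP made up most of the sum, which does not speak for the other markers. In Dex versus DMSO 1 of the 12 was higher at an adjusted p under 0.05 in edgeR (AFP) and 2 were lower (FGB and RBP4). The median log2 change of the 12 was 0.02. Of all tested genes 2.05% passed in either direction. Of the endothelial markers, KDR, TEK, ERG and EMCN had no count in any library, and the list of 10 summed to 4.42 to 9.42 CPM per library. PECAM1 and TIE1 were the 2 of them with enough counts to be tested. Of 12 fibroblast and smooth muscle markers, COL1A2, POSTN and THY1 had no count. TAGLN, PDGFRB, ACTA2 and MYH11 were counted in every library, and the list summed to 84.9 to 94.1 CPM in DMSO, 83.2 to 102 in Dex, 86.7 to 118 in KLA and 85.2 to 117 in DexKLA. Of 10 adipocyte and muscle markers, ADIPOQ, FABP4, LEP and MYH2 had no count. That list, mainly CIDEC, summed to 7.54 to 9.3 CPM in the DMSO libraries and 7.92 to 12.2 in those of Dex. In the KLA libraries the sum was 8.99 to 11.4 CPM and in those of DexKLA 9.75 to 12.1. Whether the levels of these markers bear on the results was not tested.

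Positions are those of the deposited table (hg38), which match RefSeq's gene spans for the 6 members. CAVIN2 lies on chromosome 2, 191834310 to 191847088, minus strand, with 2 exons. CAVIN1 lies on chromosome 17, 42402449 to 42423256, minus strand, with 2 exons. EHD2 lies on chromosome 19, 47713422 to 47743134, plus strand, with 6 exons. CAV2 (116499738 to 116508541) and CAV1 (116525009 to 116561185) are neighbours on the plus strand of chromosome 7, 16467 bases apart, and CAVIN3 lies on chromosome 11, 6318946 to 6320501, minus strand. The labels do not say whether counting used the strand. Reads of CAVIN2, CAV1 and CAVIN3 can thus not be told apart from those of AC098617.1, AC006159.1 and AC068733.3, annotated on the opposite strand, where they overlap. EHD2 shares its strand and part of its span with the noncoding gene AC010519.1.

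Among the members that passed the low-count filter, RefSeq's promoter table (GRCh38.p14, 250 bases before to 50 after a start) held entries for CAVIN2 and EHD2. The stretches upstream of both the RefSeq and the GENCODE start are shown, 5′ to 3′ on the gene's strand, because they differ in CpG dinucleotides, which are in capitals. They are chr2:191847256-191847338 (83 bases, minus strand) and chr19:47713172-47713342 (171 bases, plus strand).
CAVIN2: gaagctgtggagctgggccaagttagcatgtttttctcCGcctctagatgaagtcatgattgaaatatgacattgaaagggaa
EHD2: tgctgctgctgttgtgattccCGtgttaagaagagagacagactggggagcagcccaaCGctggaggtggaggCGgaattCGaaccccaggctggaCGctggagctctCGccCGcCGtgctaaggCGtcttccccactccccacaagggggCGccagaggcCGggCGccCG
The CAVIN2 stretch holds 1 CpG and the EHD2 stretch 13. Over the whole window of 300 bases, CAVIN2 had 5 CpG dinucleotides and 49.3% G and C, and EHD2 had 30 and 71%. The median of all 35116 promoters of that length was 14 CpG and 58.7%, and 29.6% of them had fewer CpG than CAVIN2.

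The same windows were searched on both strands for the glucocorticoid response hexamer AGAACA. CAVIN2 and EHD2 had no match, which says only that these letters are not in these windows. The hexamer occurred once in the window of CAVIN4 and once in each of 2 overlapping windows of CAV1, out of 3 listed for CAV1. It occurred in 14.8% of all promoters. The GC box GGGCGG was absent from the CAVIN2 window and present in those of EHD2, CAV1 and CAV2, against 45% of all promoters.

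Per length of transcript, the family fell into 2 ranges. Over all 12 libraries pooled, CAVIN2 stood at 16.5 and CAVIN1 at 15.7 CPM per kb, then EHD2 at 0.515, the muscle form CAVIN4 at 0.186, CAV2 at 0.0566, CAV1 at 0.0391 and CAVIN3 at 0.0326. CAV3 had no count. The level of CAVIN1 was 400 times that of CAV1 (exact 95% interval 243 to 716, counting error only) and 277 times that of CAV2 (179 to 453) on this scale. By group the ratio to CAV1 ran from 258 in KLA (140 to 538) to 745 in DMSO (133 to 29500), with overlapping intervals. The libraries thus held counts of 2 coat genes and almost none of the caveolins that the coat covers.

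**Figure D1:**
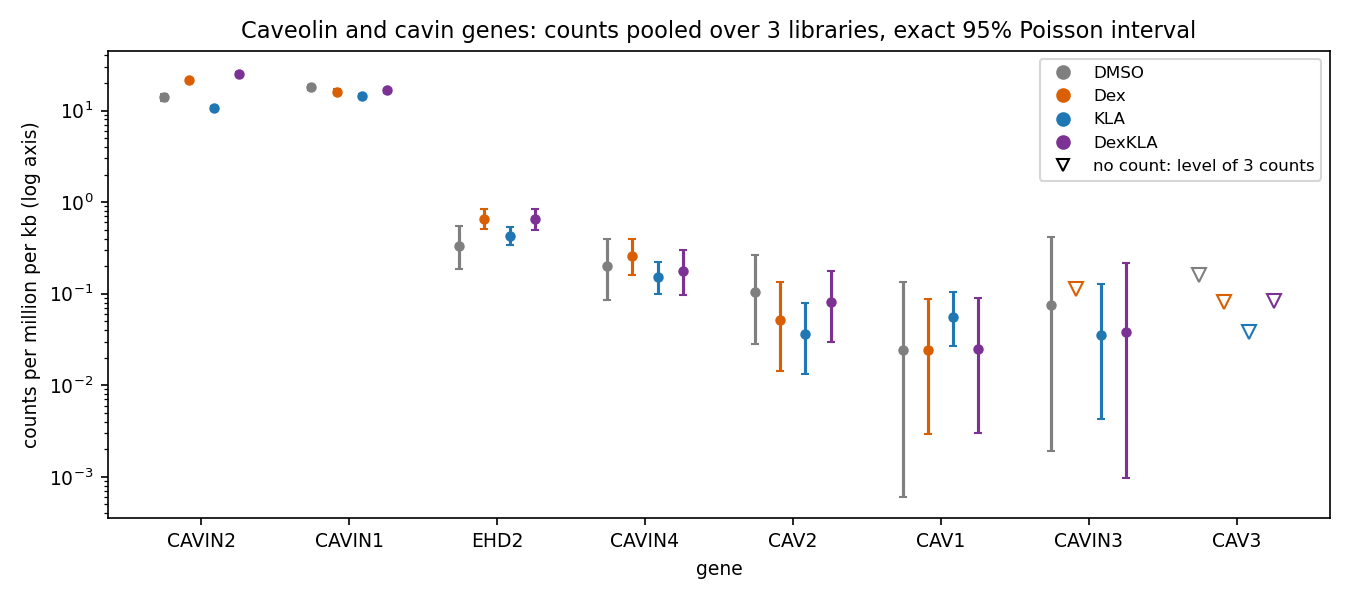
CPM per kb of transcript (log axis) for the 6 members and both muscle forms, pooled over the 3 libraries of each group, with exact 95% Poisson intervals that cover counting error only. CAVIN2 and CAVIN1 lie between 10.8 and 25.2, every other gene at 0.659 or less, and open triangles mark the level of 3 counts where no read was counted.

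CAV1, the main structural protein of caveolae outside muscle, had 15 counts in 119878802 over all libraries. Pooled by group it had 1 count in DMSO, 2 in Dex, 10 in KLA and 2 in DexKLA. These are 0.0769, 0.0768, 0.18 and 0.0791 CPM, and the 95% interval with KLA (0.0863 to 0.331) overlapped that with DMSO (0.00195 to 0.428). In single libraries CAV1 had 0 to 5 counts. The 4 transcripts of CAV1 in the table had the same total, so the choice among them did not bear on the counts. It did bear on the level per kb, which used the longest (3197 bases, the others 2420 to 2557). A shorter one would give CAV1 a higher level per kb and CAVIN1 a lower ratio to it.

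CAV2, which forms mixed oligomers with CAV1, had 4 counts in DMSO, 4 in Dex, 6 in KLA and 6 in DexKLA. The pooled levels were 0.308, 0.154, 0.108 and 0.237 CPM, all with overlapping intervals. CAVIN3, the cavin that binds protein kinase C delta, had 1, 0, 2 and 1 counts in the same order. Its 0 counts with Dex allow up to 0.115 CPM (3 counts over the group). For these 3 genes a difference between groups was not detectable at this depth.

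Both muscle forms were measured the same way. CAV3 had no count in any of the 12 libraries, which allows up to 0.025 CPM over all of them (3 counts). CAVIN4 had 0 to 12 counts per library, pooled to 0.615 CPM in DMSO, 0.806 in Dex, 0.468 in KLA and 0.554 in DexKLA. All 4 intervals of CAVIN4 overlapped.

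CAVIN2, the coat subunit that helps shape the membrane, stood at 41.1, 38.8 and 41.2 CPM in DMSO replicates 1 to 3 and at 78.2, 62 and 73.2 with Dex. With KLA it stood at 35.3, 32.1 and 33.9 CPM, and with DexKLA at 66.9, 71.5 and 87.4. The lowest library with Dex (62) lay well above the highest without Dex (41.2). In order of mean level the groups were KLA (33.8 ± 1.63 CPM, SD, n = 3), DMSO (40.4 ± 1.4), Dex (71.1 ± 8.27) and DexKLA (75.3 ± 10.7). In bulk RNA, a change in the share of cells with the message and in the message per cell cannot be told apart. Of neighbours in that order, the libraries of Dex and DexKLA overlapped, and those of KLA and DMSO did not. The KLA libraries lay wholly below those of DMSO for 18.3% of all tested genes.

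**Figure D2:**
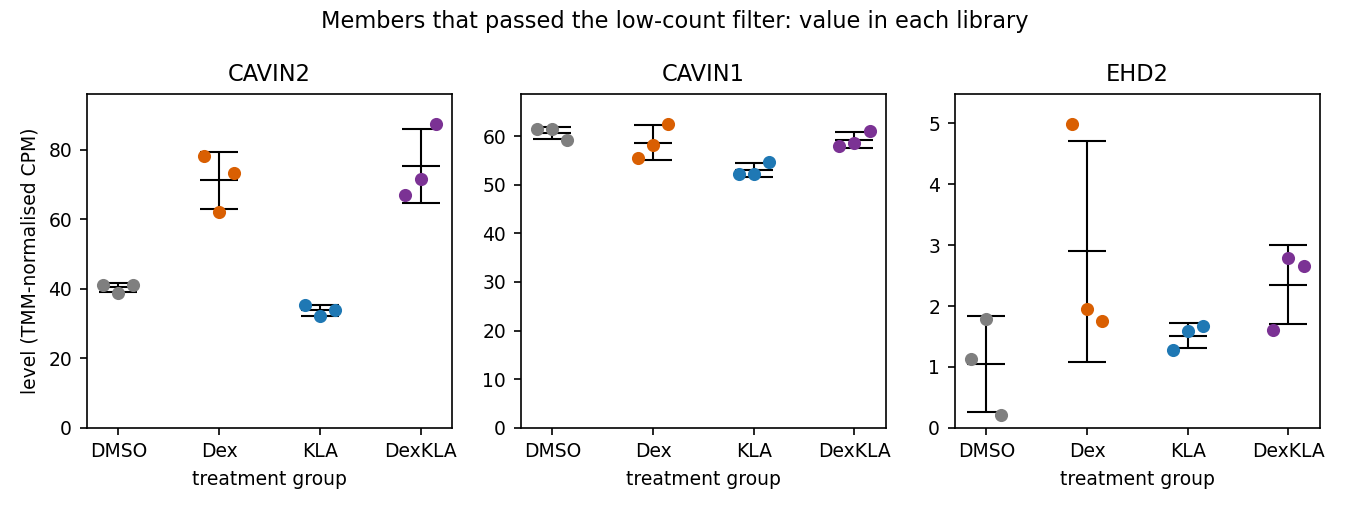
TMM-normalised CPM in each library for CAVIN2, CAVIN1 and EHD2, with the mean and SD of each group (n = 3). All 6 libraries with Dex lie above all 6 without it for CAVIN2, CAVIN1 spans 52.2 to 62.5, and EHD2 has 1 high Dex library at 4.99. The KLA and DexKLA libraries are those of the contrast on which CAVIN2 was noticed.

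Dex alone raised CAVIN2 by 1.75 times (log2 0.81 ± 0.13, fitted value ± SE, 95% interval 0.54 to 1.07). In the quasi-likelihood test of edgeR, adjusted after Benjamini and Hochberg across the 13166 tested genes, p was 0.00139 and CAVIN2 was the 20th by p. All 3 Dex libraries lay above all 3 DMSO libraries, as did those of 14.5% of all tested genes. CAVIN2 was 1 of the 3 tested members called higher, and 1.22% of all tested genes were (2.05% in either direction). The call held in each of the 23 other settings tried, with values from 0.71 to 0.91 and adjusted p from 1.16e-06 to 0.0144. It was 0.80 both without KLA replicate 3 and without DexKLA replicate 3, which bear on it only through the shared spread and scaling.

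In the presence of KLA the fitted difference of CAVIN2 between DexKLA and KLA was 1.16 ± 0.12 on the log2 scale, or 2.24 times, and between 0.99 and 1.24 in the other settings. This is the contrast on which CAVIN2 was noticed, so nothing is read from the value. It was 1.17 without KLA replicate 3 and 1.03 without DexKLA replicate 3. The other 2 tested members were not called there, and 0.653% of all tested genes were. The difference between both Dex effects was 0.36 ± 0.17 and fell to 0.23 without DexKLA replicate 3. Between DexKLA and DMSO the fitted difference was 0.91 ± 0.12, and 0.78 without DexKLA replicate 3. CAVIN1 and EHD2 were not called in that comparison, in which 4.22% of all tested genes were.

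KLA alone left CAVIN2 at a fitted −0.26 ± 0.12 against DMSO (95% interval −0.51 to 0). All 3 KLA libraries lay below all 3 DMSO libraries, as did those of 18.3% of the tested genes. In the presence of Dex, KLA gave 0.10 ± 0.12 (interval −0.14 to 0.35), with overlapping libraries, and −0.03 without DexKLA replicate 3. Both comparisons reuse libraries of the contrast on which CAVIN2 was noticed. The SEs and intervals do not allow for that and are not read as tests.

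CAVIN1, without which caveolae do not form, stood at 61.4, 61.4 and 59.1 CPM with DMSO and 55.4, 58.1 and 62.5 with Dex. With KLA it stood at 52.2, 52.2 and 54.6 CPM and with DexKLA at 58, 58.5 and 61. Its Dex libraries spanned those of DMSO, and the fitted difference was −0.05 ± 0.10 on the log2 scale (95% interval −0.26 to 0.17, adjusted p = 0.837, edgeR's quasi-likelihood test). The difference turned to 0.08 when each library's trend on transcript length was removed. The median of all tested genes turned positive as well in that setting and lay close to the value of CAVIN1. With KLA present, DexKLA differed from KLA by 0.16 ± 0.10 (interval −0.04 to 0.36, adjusted p = 0.566). The 3 DexKLA libraries lay above the 3 KLA libraries, as did those of 8.09% of all tested genes.

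The 3 KLA libraries of CAVIN1 also lay below the 3 DMSO libraries, as did those of 18.3% of all tested genes. The fitted difference was −0.19 ± 0.10 (interval −0.40 to 0.01, adjusted p = 0.186, edgeR's quasi-likelihood test). It stayed negative and uncalled in every other setting, but its size varied widely and at its smallest was close to no difference. In KLA versus DMSO neither CAVIN1 nor EHD2 was called or had an unadjusted p under 0.05 in edgeR, while 13.7% of all tested genes were called. CAVIN2, described only, is left out here. Limma voom called neither gene there, and DESeq2 did not call CAVIN1. In DexKLA versus Dex none of the 3 tools called CAVIN1 or EHD2, and neither had an unadjusted p under 0.05 in edgeR. There edgeR, DESeq2 and voom called 0 of all tested genes, 934 of which had an unadjusted p under 0.05 in edgeR. For CAVIN1 that last comparison gave 0.01 ± 0.10 (interval −0.20 to 0.22).

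**Figure D3:**
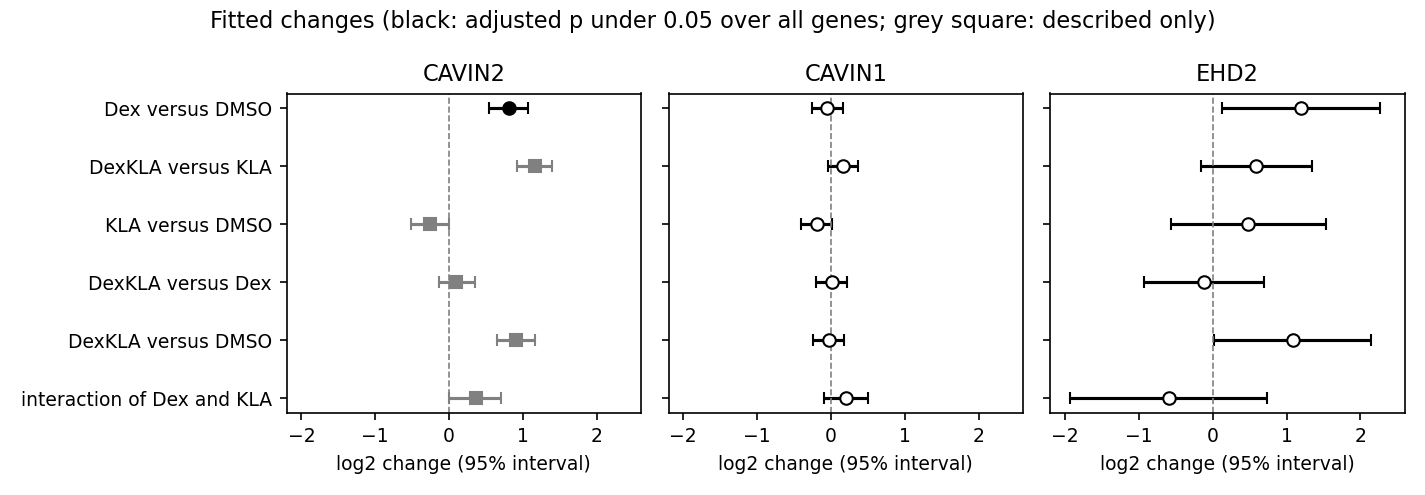
Fitted log2 changes with 95% intervals for CAVIN2, CAVIN1 and EHD2 in the 5 pairwise comparisons and the interaction; the black point has an adjusted p under 0.05 over all genes and grey squares, all of CAVIN2, are values given as a description. CAVIN2 passes in Dex versus DMSO (0.81), and no interval of CAVIN1 excludes 0.

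EHD2, the ATPase of the caveola neck, was low. It had 4, 10 and 1 counts with DMSO (1.13, 1.79 and 0.218 CPM) and 18, 34 and 8 with Dex (4.99, 1.95 and 1.76 CPM). With KLA it stood at 1.28, 1.59 and 1.67 CPM and with DexKLA at 1.6, 2.79 and 2.66. Dex replicate 1 was the highest of all libraries, and the Dex and DMSO libraries overlapped.

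The fitted difference of EHD2 in Dex versus DMSO was 1.19 ± 0.51 on the log2 scale (95% interval 0.12 to 2.26), with an unadjusted p of 0.0303 and an adjusted p of 0.195 in edgeR's quasi-likelihood test. It was not called. Leaving out single libraries moved the value between 0.72 and 2.00. DexKLA versus KLA gave 0.59 ± 0.36 (adjusted p = 0.571) and DexKLA versus DMSO 1.08 ± 0.51 (adjusted p = 0.227) in the same test. The interaction was −0.60 ± 0.64 for EHD2 and 0.21 ± 0.14 for CAVIN1. Neither was called for it by edgeR or voom (unadjusted p = 0.361 for EHD2 and 0.159 for CAVIN1 in edgeR). DESeq2 did not call CAVIN1 and gave no adjusted p for EHD2 there. Of all tested genes 0.038% were called in edgeR.

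The balance of both abundant cavins was also read within each library, where the scaling between libraries cancels. Per kb, the ratio of CAVIN2 to CAVIN1 was 0.783, 0.738 and 0.815 with DMSO and 1.65, 1.25 and 1.37 with Dex. It was 0.79, 0.718 and 0.727 with KLA and 1.35, 1.43 and 1.68 with DexKLA. Per kb, CAVIN2 thus counted less than CAVIN1 in all 6 libraries without Dex and more in all 6 with it. The KLA and DexKLA libraries are those of the contrast on which CAVIN2 was noticed. As CAVIN1 varied little, the ratio mainly restates the values of CAVIN2 and is no separate result. How many other genes separate so in their ratio to CAVIN1 was not computed.

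In the geometric mean the ratio was 1.82 times higher with Dex than with DMSO (exact permutation test, two-sided, p = 0.1, the smallest that 3 against 3 libraries allow, adjusted p = 0.2 over 4 comparisons). As a description, the ratio was 1.9 times higher in DexKLA than in DMSO and 1.99 times higher than in KLA. KLA versus DMSO gave 0.957 times and DexKLA versus Dex 1.05 times. The mean ratio was 0.779 ± 0.0386 (SD, n = 3) in DMSO and 0.745 ± 0.0395 in KLA, against 1.42 ± 0.205 in Dex and 1.48 ± 0.17 in DexKLA.

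**Figure D4:**
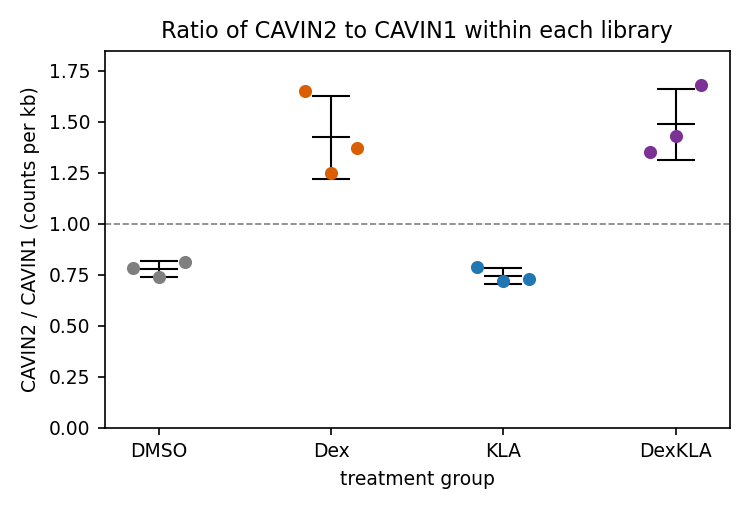
Ratio of CAVIN2 to CAVIN1, each in counts per kb of transcript, in every library, with the group mean and SD (n = 3). The 6 libraries without Dex lie between 0.718 and 0.815 and the 6 with Dex between 1.25 and 1.68. The KLA and DexKLA libraries are those of the contrast on which CAVIN2 was noticed. The dashed line marks equal levels.

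Genes whose pattern was most like that of CAVIN2 were sought among the 12387 genes whose log2 CPM averaged 1 or more, by the root mean square difference between log2 CPM profiles over the 12 libraries, each centred on its own mean. The 5 nearest were DOCK4 (0.183), SLC25A30 (0.19), KLF9 (0.191), SUSD2 (0.2) and MAOA (0.204), against a median of 0.548 for all genes compared. DOCK4 is an activator of small GTPases, SLC25A30 a mitochondrial carrier, KLF9 a transcription factor known as a glucocorticoid target and MAOA an amine oxidase. All points share the same libraries, and these distances are a description.

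DOCK4, the nearest, averaged 23.4 ± 3.93 CPM in Dex and 27.3 ± 3.78 in DexKLA, against 17.1 ± 2.07 in DMSO and 12 ± 1.76 in KLA (SD, n = 3). Its Dex and DMSO libraries overlapped: on the centred log2 scale Dex replicate 2 stood at 0.02 and DMSO replicate 3 at 0.024. MAOA averaged 67.6 ± 2.28 CPM in Dex and 65.3 ± 3.18 in DexKLA, against 44 ± 5.67 in DMSO and 36.2 ± 4.48 in KLA. KLF9 averaged 25.2 ± 2.59 CPM in Dex and 27.2 ± 2.22 in DexKLA, against 17.6 ± 1.58 in DMSO and 14.1 ± 1.28 in KLA. FKBP5, a chaperone partner and common target of the glucocorticoid receptor, came 6th at a distance of 0.228. In edgeR's quasi-likelihood test FKBP5 was not called in Dex versus DMSO (log2 0.55 ± 0.17, adjusted p = 0.0856). It was called in DexKLA versus KLA (1.04 ± 0.16, adjusted p = 0.000867). CAVIN1 was at a distance of 0.476, in place 1084. Of the strongly Dex-responsive genes taken as references, HOMER2 was at 0.617, since its swing was wider than that of CAVIN2 (6.96 ± 0.761 CPM with DMSO and 26.9 ± 1.67 with Dex). HIF3A was under the level needed.

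**Figure D5:**
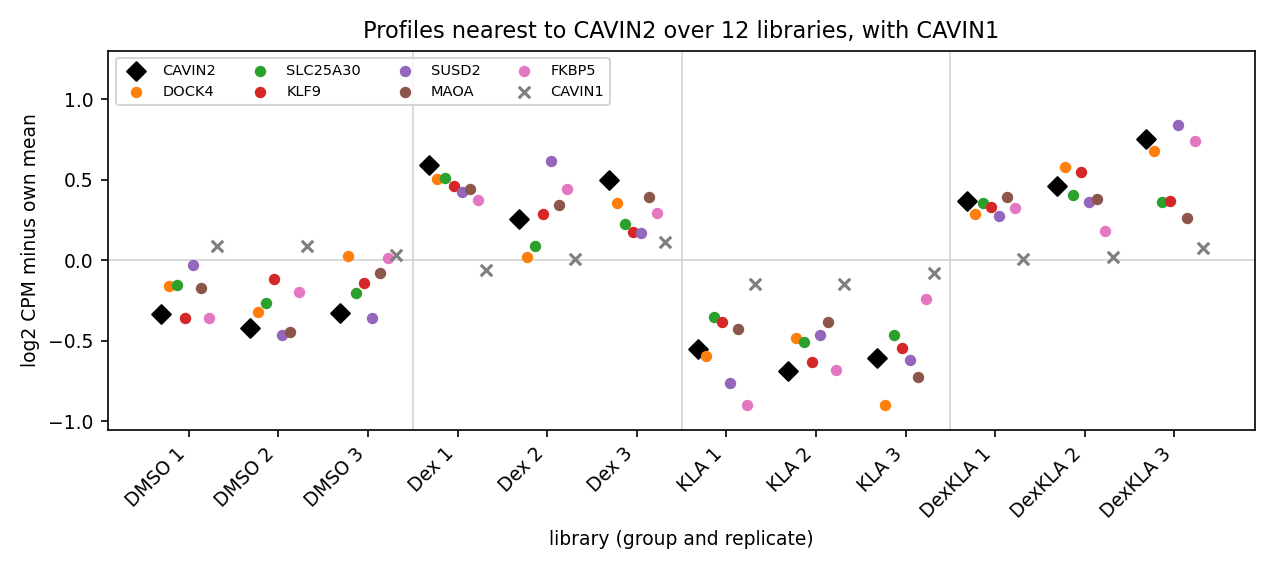
Log2 CPM minus the gene's own mean in each of the 12 libraries for CAVIN2 (diamonds), the 5 nearest genes, FKBP5 and, for contrast, CAVIN1 (crosses). The nearest genes lie above their mean with Dex and DexKLA and mostly below it with DMSO and KLA, while CAVIN1 stays near 0.

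Other proteins that work at caveolae were followed as lists, all chosen with earlier results of these data known. The 6 lists held 78 different tested genes. In Dex versus DMSO 1.28% of them were called, against 2.05% of all tested genes. In DexKLA versus KLA 2.56% were, 2 genes in all, against 0.653%. Of 14 tested receptors and enzymes that have been placed in caveolae, 1 was called higher and none lower with Dex alone (median −0.20, all tested genes −0.01). It was CD36, the scavenger receptor that takes up fatty acids. CD36 had 7.32, 7.72 and 11.1 CPM in the DMSO libraries and 15.5, 15.6 and 16.5 in those of Dex. It had 11.1, 13 and 11.9 CPM in the KLA libraries and 21.6, 19 and 22.1 in those of DexKLA. Both groups with Dex lay wholly above both groups without it, as did those of 0.6% of all tested genes.

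CD36 rose by 0.85 ± 0.18 on the log2 scale with Dex alone (adjusted p = 0.0137, edgeR) and by 0.81 ± 0.14 in DexKLA versus KLA (adjusted p = 0.00384). The first call ended without DMSO replicate 1, DMSO replicate 2, Dex replicate 2 or Dex replicate 3, with adjusted p up to 0.0949. The second ended when all libraries were thinned to the smallest total (adjusted p = 0.105). In DexKLA versus DMSO CD36 rose by 1.27 ± 0.17 (adjusted p = 0.000202), a call that held in all 22 settings with a value. Its interaction was −0.05 ± 0.23 (95% interval −0.52 to 0.42).

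Accessory proteins of caveolae, such as the dynamins and pacsins, had 11 tested of 16, and none was called in Dex versus DMSO or DexKLA versus KLA (medians −0.12 and 0.09). FLNA, an actin crosslinker, stood at 462 ± 49.9 CPM with DMSO and 381 ± 48.6 with Dex (SD, n = 3). In KLA it averaged 335 ± 68.1 CPM and in DexKLA 407 ± 60.9.

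The clathrin coat, the other main route of uptake, and the flotillins and raft proteins gave no call with Dex either. All 15 clathrin genes and all 10 raft genes were tested, with medians of −0.07 and −0.09 in Dex versus DMSO and 0.10 and −0.02 in DexKLA versus KLA. CLTC, the clathrin heavy chain, stood at 413 ± 12 CPM with DMSO and 358 ± 8.04 with Dex (SD, n = 3), and AP2M1, a subunit of its adaptor, at 160 ± 11.9 and 158 ± 12.2. FLOT1, a scaffold protein of membrane rafts, stood at 172 ± 4.63 and 207 ± 3.69 CPM, and PRNP, the prion protein, at 185 ± 4.12 and 178 ± 3.16. The cholesterol list holds mainly genes of synthesis and uptake, and also transport genes such as ABCA1, an exporter. None of its 15 tested genes was called with Dex in either comparison (medians −0.10 and 0.08).

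The co-activators YAP and TAZ act with TEAD factors on genes that respond to tension. The list of such genes also holds YAP1, WWTR1 (TAZ), TEAD1 and TEAD4 themselves, so its medians are not those of targets alone. None of its 14 tested genes was called with Dex alone (median −0.21), and 1 was lower in DexKLA versus KLA (median 0.11). This was CCN2, a matricellular protein and a standard YAP target, with 359, 264 and 284 CPM with KLA and 185, 228 and 212 with DexKLA. It fell by 0.54 on the log2 scale (adjusted p = 0.0341, edgeR's quasi-likelihood test). The call ended without any 1 of 7 libraries: DMSO replicate 2 or 3, Dex replicate 3, KLA replicate 1, or DexKLA replicate 1, 2 or 3, with adjusted p up to 0.234. It also ended with the replicate block (adjusted p = 0.0785), with the length trend removed (0.0983) and with only the libraries compared (0.191).

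In KLA versus DMSO, 12 of the 78 genes were called (15.4%, near the 13.7% of all tested genes), 10 lower and 2 higher. The lower genes were FLNA (−0.46 ± 0.14), the kinase ABL1 (−0.42 ± 0.14) and PACSIN2, a membrane-bending protein (−0.35 ± 0.11). They also were the raft protein STOM (−0.46 ± 0.11) and the clathrin genes HIP1 (−0.74 ± 0.20) and CLTC (−0.33 ± 0.11). The growth factor receptor EGFR (−0.68 ± 0.19), the calcium pump ATP2B4 (−0.58 ± 0.19), YAP1 (−0.44 ± 0.12) and CRIM1 (−0.55 ± 0.15) completed them. The higher genes were FLOT1 (0.34 ± 0.10) and IDI1, an enzyme of cholesterol synthesis (0.55 ± 0.13). With the length trend removed 11 of the 12 calls ended, all but that of IDI1, and FLNA stood at −0.15. All 12 calls ended without DMSO replicate 1. The count over all genes then fell from 1806 to 5. In DexKLA versus DMSO IDI1 was called higher as well (0.55 ± 0.13, adjusted p = 0.0268, same test), a call that ended without DMSO replicate 1 or 2 or DexKLA replicate 1 or 2.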

How the data were processed

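RNA of 12 libraries was analysed. Trimmomatic, BWA 0.7.17, HOMER 4.10 and hg38 are listed, with no roles, per the submitters' processing notes. The deposited values, in steps of 0.5 for 70507 RefSeq transcripts, were taken to be expected counts and were rounded to whole numbers. How they were made is not given in the sources used here. Transcripts with no symbol (406, with 1.71% to 2.55% of a library's total) were left out, and the transcript of highest total stood for each symbol. edgeR 4.0.16 in R 4.3.3 was used with filterByExpr (minimum count 10, 13166 genes left, 3 of the 6 members), TMM and a quasi-likelihood fit over all 12 libraries in which each group has its own mean. Calls are at an adjusted p under 0.05 (Benjamini and Hochberg) over all tested genes of a comparison. The route was tested on simulated data.

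The members, lists and settings were chosen with earlier results of these data known. The text names all members, up to 4 called genes of each list per comparison, and the 5 genes nearest in pattern to CAVIN2; CAV1 was too low for that search. Where no gene of a list was called, up to 2 of the highest level were to be named, and some of these are not reported here. Levels are TMM-normalised CPM; pooled counts and limits use plain totals and cover counting error only. Other settings were DESeq2 1.42.0 size factors, library size alone, the DESeq2 test, limma 3.58.1 voom, no filter, a stricter one (50 reads in 3 libraries), the longest transcript, a replicate block, only the libraries compared, removal of each library's loess trend (span 0.3) on transcript length, thinning to 3317739 counts, and leaving out each library. Replicates of a group were no copies (chi-square per degree of freedom at least 1.92).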

Additional observations from a re-analysis of the deposited data

How the results depend on the processing

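The number of members called was the same as reported in all 137 recomputations over the 6 comparisons (up to 23 settings each). The number stayed at 1 in Dex versus DMSO, also with no filter, where all 6 members were tested. In KLA versus DMSO, DexKLA versus Dex and the interaction it stayed at 0. CAVIN2 is not read there, since these comparisons reuse libraries of the contrast on which it was noticed. The 1 member called in DexKLA versus KLA and in DexKLA versus DMSO was CAVIN2, in libraries of the contrast on which it was noticed, and says nothing about stability. Signs turned only for differences that were not called and, in 1 case, for CLTC. With the length trend removed, CAVIN1 gave 0.08 in Dex versus DMSO, 0.08 in DexKLA versus DMSO and 0 in DexKLA versus Dex, and CLTC gave 0.01 in KLA versus DMSO. That setting also turned the median of all tested genes from negative to positive in every comparison with DMSO. With thinning, CAVIN1 gave 0.01 in DexKLA versus DMSO. Leaving out single libraries in DexKLA versus Dex moved CAVIN1 from −0.02 to 0.06, CAVIN2 from −0.03 to 0.18 and EHD2 from −0.48 to 0.28. Replicate numbers did not pair the libraries: 1 of 18 same-numbered pairs had a correlation of deviations over 0.1, and 1 of 12 libraries was closest to its own number. With the replicate block CAVIN2 gave 0.81 in Dex versus DMSO (adjusted p = 0.00145, edgeR), and no member's call changed.

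Counts over all genes moved more, and the cause was not tested. Dex versus DMSO had 270 calls, 134 with the block, 656 with the DESeq2 test, 907 with no filter, 1348 with only the libraries compared and 56 to 915 without single libraries. DexKLA versus KLA had 86, against 204 with no filter, 57 thinned, 38 with only the libraries compared and 52 to 94 without single libraries. KLA versus DMSO had 1806, against 1201 with the length trend removed and 5 to 2363 without single libraries. DexKLA versus Dex had 0, and 12 with no filter. DexKLA versus DMSO had 556, against 925 with the DESeq2 test, 326 with voom, 987 with no filter, 324 with the block, 991 with the length trend removed and 48 to 1461 without single libraries. The interaction had 5, against 0 with DESeq2 size factors, voom, the block or the length trend removed, 230 with library size alone, 664 with the DESeq2 test, 1041 with no filter, 28 thinned and 0 to 681 without single libraries. With library size alone the median of all genes shifted to −0.11 in Dex versus DMSO, −0.13 in KLA versus DMSO and −0.115 in DexKLA versus DMSO, and to 0.129 for the interaction. The share of calls that were higher was then 26.3%, 23.7% and 27.7% in place of 59.3%, 56.7% and 67.3%, and 85%, 91.7% and 88.7% with the length trend removed (in the same order of comparisons). Depth limits CAV1, CAV2, CAVIN3 and EHD2, whose counts per library did not exceed 34.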
